A study of Mus musculus with 3 samples.

Results

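The regulators of G protein signalling studied here are 10 genes of the RGS family, Rgs1, Rgs2, Rgs3, Rgs10, Rgs12, Rgs13, Rgs14, Rgs16, Rgs18 and Rgs19, taken by exact gene symbol from the 33605 symbols of 3 expression tables. All 10 were found, each in a single row and as a protein-coding gene, and 7 had a mean of at least 1 RPKM over the 3 libraries, the level needed to enter the comparisons. RPKM is the read count scaled to gene length and to a library total. The genes were chosen by their RPKM in these 3 libraries, so their values are given as a description and carry no test. Rgs3, Rgs13 and Rgs18 stayed under the 1 RPKM mean, and their values are given separately.

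RNA came from B cells of C57BL/6 mouse spleen that lacked surface CD43, a marker carried by activated B cells and most other leukocytes. The cells were cultured for 3 days in RPMI1640 with LPS, the bacterial cell wall component lipopolysaccharide, and the T cell cytokine IL4. One culture received DMSO, the vehicle, another JQ1+ at 80 nM and the last flavopiridol at 30 nM, all for 3 days. These groups follow the treatment label, since the separate culture label of all 3 samples names DMSO. JQ1 displaces BET bromodomain proteins from acetylated chromatin, and flavopiridol inhibits cyclin-dependent kinases including Cdk9, which releases paused RNA polymerase. Each treatment was represented by 1 library, whether the cultures shared mice is not stated, and the comparisons ask how transcript levels differed after each drug.

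Receptors for chemokines and many lipids act through heterotrimeric G proteins, whose alpha subunit is switched on by GTP and off when the GTP is hydrolysed. RGS proteins carry a conserved domain that speeds this hydrolysis and so shortens the signal. The R4 subfamily (Rgs1, Rgs2, Rgs3, Rgs13, Rgs16, Rgs18) consists mostly of small proteins with little beyond the RGS domain, many of them encoded by inducible genes. The R12 subfamily (Rgs10, Rgs12, Rgs14) contains the small Rgs10 and the larger Rgs12 and Rgs14, which also bind Ras-like GTPases and inactive alpha subunits. Rgs19 belongs to the RZ subfamily. In B cells, RGS proteins are known for limiting migration towards chemokines.

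The sequences before the transcription starts of Rgs2, Rgs16 and Rgs10 are shown because Rgs2 and Rgs16 were higher with both drugs and Rgs10 with JQ1+ alone. Each is the 250 bases upstream of the RefSeq start, read 5′ to 3′ on the gene's own strand. In GRCm38.p6 they lie at chr1:144004150-144004399 on the minus strand, chr1:153740103-153740352 on the plus strand and chr7:128418173-128418422 on the minus strand. Capitals mark matches, on either strand, to the cyclic AMP response half-site TGACG, the CCAAT box CCAAT or the GC box GGGCGG.
Rgs2: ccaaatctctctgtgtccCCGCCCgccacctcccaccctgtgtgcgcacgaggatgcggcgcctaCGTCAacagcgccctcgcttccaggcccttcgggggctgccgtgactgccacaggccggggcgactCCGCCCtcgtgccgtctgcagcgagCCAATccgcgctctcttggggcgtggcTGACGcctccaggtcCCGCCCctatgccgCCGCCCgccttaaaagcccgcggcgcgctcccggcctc
Rgs16: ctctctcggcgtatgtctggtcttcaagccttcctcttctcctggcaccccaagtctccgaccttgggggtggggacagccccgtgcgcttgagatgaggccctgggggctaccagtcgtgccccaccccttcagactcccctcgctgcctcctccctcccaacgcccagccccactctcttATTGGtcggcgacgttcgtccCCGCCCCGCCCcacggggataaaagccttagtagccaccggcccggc
Rgs10: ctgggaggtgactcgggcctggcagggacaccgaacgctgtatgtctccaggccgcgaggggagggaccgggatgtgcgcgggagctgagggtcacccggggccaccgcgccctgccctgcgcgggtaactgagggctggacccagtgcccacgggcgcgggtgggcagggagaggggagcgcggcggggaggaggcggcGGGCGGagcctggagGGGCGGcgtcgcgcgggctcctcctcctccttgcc

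The Rgs2 window held 4 GC boxes, 1 CCAAT box and 2 cyclic AMP response half-sites. The Rgs16 window held 2 GC boxes, which share 1 base, and 1 CCAAT box. The Rgs10 window held 2 GC boxes and neither of the other motifs. A GC box was present in 33.0% of 32536 upstream windows of the same length, a CCAAT box in 33.8% and a half-site in 17.9%. The E-box CACGTG, the TATA box TATAAA and the full cyclic AMP response element TGACGTCA, which contains the half-site, were searched in the same way and matched none of the 3 windows. They occurred in 6.04%, 12.3% and 1.56% of all windows. G and C made up 72.4% of the Rgs2 window, 66.4% of the Rgs16 window and 76.4% of the Rgs10 window, against a median of 52.4% over all windows. RefSeq windows were matched by symbol for 7 of the 10 genes, not including Rgs1, Rgs14 and Rgs18. A match to these letters is a description of the sequence and not evidence of binding.

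The libraries held between 50184508 (flavopiridol) and 59786847 (DMSO) summed counts. B cell identity was checked with markers that included Cd79a at 266 to 507 RPKM, Cd79b at 1545 to 2127, Pax5 at 137 to 168 and Cd72 at 47.5 to 57.3. T cell markers other than Thy1 summed to 3.997 to 4.73 RPKM over 8 genes, and Thy1 alone stood at 161 to 268 RPKM. Markers of NK cells summed to 1.66 to 3.31 RPKM over 6 genes, with Ncr1 at 0, and those of platelets and megakaryocytes to 2.14 to 2.91 RPKM over 10 genes. The 13 myeloid markers found summed to 8.02 RPKM in DMSO, 7.75 in JQ1+ and 15.3 in flavopiridol, with S100a8, S100a9 and Ly6g at 0 in all 3 libraries. The 7 dendritic cell markers summed to 90.03 RPKM in DMSO, 10.7 in JQ1+ and 35.1 in flavopiridol, mostly from Batf3 and Flt3, while Siglech, Clec9a and Itgax stayed under 0.05 RPKM. In bulk RNA, fewer cells of a type and less RNA per cell cannot be told apart.

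Below, rose and fell mean a log2 change of RPKM + 1 that reached 1 in size, which is 2-fold on that scale. Ratios are of RPKM without the added 1, and their 95% intervals reflect counting error alone. Because each treatment has a single library, differences have no replicate check and no p-values were computed. The comparisons of each drug with DMSO share the DMSO library. Between libraries the median log2 change over the 14790 genes compared was -0.08 for JQ1+ against DMSO, 0.13 for flavopiridol against DMSO and -0.21 for JQ1+ against flavopiridol. Changes of the RGS genes are to be read against these shifts.

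With flavopiridol, 3 of the 10 RGS genes rose, all in the R4 subfamily: Rgs2, Rgs16 and Rgs1. With JQ1+, 3 of the 10 rose, Rgs2, Rgs16 and the R12 gene Rgs10. None of the 10 fell with either drug. With a pseudocount of 5 RPKM in place of 1, the flavopiridol calls remained and no RGS gene passed 2-fold with JQ1+. Over all genes compared, 3.55% rose and 2.88% fell with flavopiridol, and 1.98% rose and 5.29% fell with JQ1+. Of all genes compared, 0.744% rose with JQ1+ and also with flavopiridol, 110 genes that include Rgs2 and Rgs16. These shares are the background of the counts and, since the genes were picked with these values known, nothing is read from the difference.

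**Figure D1:**
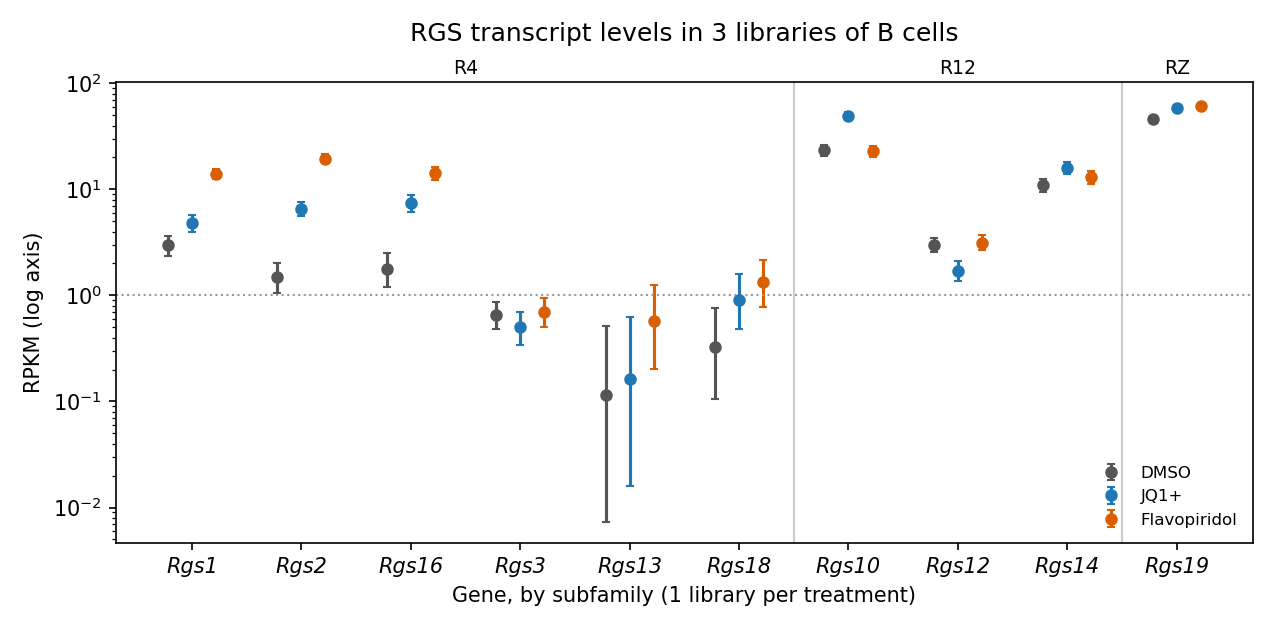
RPKM of the 10 RGS genes on a log axis, with 1 point per library and bars for the 95% interval of counting error. Rgs1, Rgs2 and Rgs16 step up from DMSO to JQ1+ to flavopiridol, Rgs10 is high in JQ1+ alone, and Rgs19 lies highest in all 3 libraries.

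In the DMSO library Rgs19 had the highest level of the 10, at 45.8 RPKM, followed by Rgs10 at 23.4 and Rgs14 at 10.96. Their counting intervals did not overlap. Next came Rgs12 at 2.99 RPKM and Rgs1 at 2.96, which did not differ beyond counting error, then Rgs16 at 1.77 and Rgs2 at 1.49, which likewise overlapped. Rgs3 at 0.651, Rgs18 at 0.328 and Rgs13 at 0.116 RPKM closed the order. In the JQ1+ library the first 3 places were again taken by Rgs19, Rgs10 and Rgs14. Rgs16 and Rgs2 moved above Rgs1 and Rgs12, with overlapping intervals for Rgs2 and Rgs1. In the flavopiridol library Rgs2 followed Rgs19 and Rgs10, its interval overlapping that of Rgs10, and Rgs16, Rgs1 and Rgs14 followed with overlapping neighbours. Rgs2 and Rgs16 were thus below Rgs12 in DMSO, and Rgs1 was level with it within counting error. All 3 were above Rgs12 in JQ1+ and flavopiridol.

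Rgs2, whose protein acts preferentially on the Gq alpha subunit, stood at 1.49 RPKM in DMSO, 6.56 in JQ1+ and 19.4 in flavopiridol, from 114, 449 and 1208 counts. It was lowest in DMSO, intermediate in JQ1+ and highest in flavopiridol, and the 3 counting intervals did not overlap. The ratio to DMSO was 13.1 with flavopiridol (interval 9.40 to 18.4) and 4.41 with JQ1+ (interval 3.10 to 6.38). Its log2 changes were 3.04 and 1.60, the first ranking 8 from the top and the second 72 among 14790 genes. Rgs2 was 2.96-fold lower in JQ1+ than it was in flavopiridol (interval 2.46 to 3.57).

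Rgs16, which acts on Gi and Gq subunits and is induced in activated lymphocytes, stood at 1.77 RPKM in DMSO, 7.37 in JQ1+ and 14.2 in flavopiridol, from 87, 325 and 570 counts. Its 3 libraries had the same order as those of Rgs2. The ratio to DMSO was 8.04 with flavopiridol (interval 5.48 to 12.2) and 4.17 with JQ1+ (interval 2.78 to 6.43), with log2 changes of 2.46 and 1.60. Between the drugs Rgs16 stood 1.93-fold lower with JQ1+ (interval 1.52 to 2.44), a log2 difference of -0.86 that did not reach the 2-fold rule. The JQ1+ levels of Rgs16 and Rgs2 overlapped within counting error, whereas in flavopiridol Rgs2 was above Rgs16.

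Rgs1, a brake on chemokine-driven B cell migration, stood at 2.96 RPKM in DMSO, 4.77 in JQ1+ and 13.9 in flavopiridol, from 239, 345 and 916 counts. Flavopiridol stood well above the other 2 libraries, which lay close together. The ratio to DMSO was 4.71 with flavopiridol (interval 3.69 to 6.04), a log2 change of 1.91. With JQ1+ the ratio was 1.61 (interval 1.21 to 2.15) and the log2 change of 0.54 was within 2-fold. Rgs1 was 2.92-fold lower in JQ1+ than it was in flavopiridol (interval 2.36 to 3.62).

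The F4/80 gene Emr1, a myeloid marker, was also highest in the flavopiridol library, at 0.922 RPKM in DMSO, 0.801 in JQ1+ and 9.47 in flavopiridol. Of the 13 myeloid markers found, 6 had their highest level in flavopiridol, 3 in JQ1+ and 1 in DMSO, and 3 were at 0 in every library. Kit, a marker of mast cells and progenitors, stood at 0.081, 0.246 and 0.859 RPKM, Cd14 at 0.121, 0.203 and 0.148, and Csf1r at 6.41, 4.03 and 3.94. Whether such cells had a part in the Rgs1, Rgs2 and Rgs16 values was not tested.

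The remaining R4 genes were low. Rgs18, best known from platelets and megakaryocytes, stood at 0.328 RPKM in DMSO, 0.914 in JQ1+ and 1.35 in flavopiridol, from 14, 35 and 47 counts. Its log2 changes were 0.53 and 0.82, and its ratio of 4.11 with flavopiridol had an interval of 1.45 to 14.4. Of 10 platelet and megakaryocyte markers, Pf4, Ppbp and Gp6 were at 0 in all 3 libraries and the other 7 stayed under 1 RPKM. Their summed level was 2.14 RPKM in DMSO, 2.28 in JQ1+ and 2.91 in flavopiridol. Of the 7 with reads, 3 had their highest level in flavopiridol, 2 in JQ1+ and 2 in DMSO. Tubb1 at 0, 0.189 and 0.456 RPKM and Gp1bb at 0.455, 0.733 and 0.805 had the same order of libraries as Rgs18. Whether platelets or megakaryocytes had a part in the Rgs18 values was not tested. Rgs13, associated with germinal centre B cells, stood at 0.116, 0.162 and 0.568 RPKM from 4, 5 and 16 counts, and its intervals against DMSO included 1 for both drugs. Rgs3, which acts on Gi and Gq subunits, stood at 0.651, 0.5 and 0.697 RPKM and differed by less than counting error from DMSO with either drug.

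**Figure D2:**
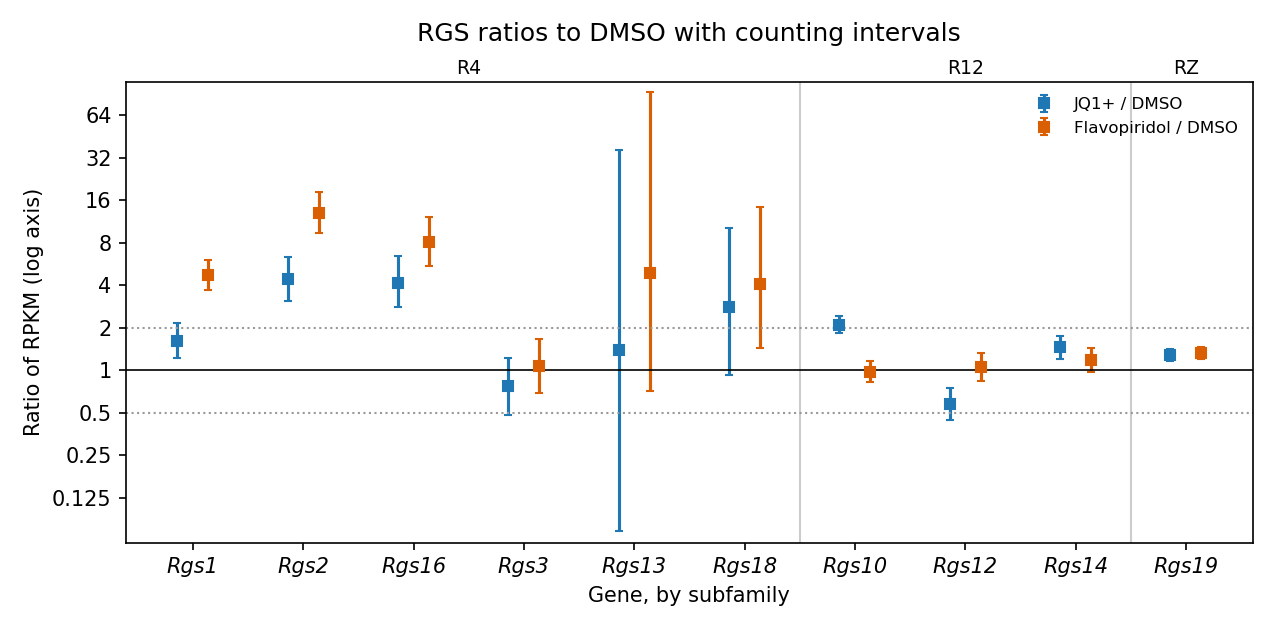
Ratio of RPKM to DMSO for each RGS gene on a log axis, with 95% counting intervals and dotted lines at 2-fold. Flavopiridol ratios of Rgs1, Rgs2 and Rgs16 lie between 4.71 and 13.1, and Rgs10 is the single gene above the upper line with JQ1+ and near 1 with flavopiridol.

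Rgs10, a small R12 protein that acts on Gi subunits, stood at 23.4 RPKM in DMSO, 49.2 in JQ1+ and 22.8 in flavopiridol, from 842, 1587 and 670 counts. JQ1+ was high, and the DMSO and flavopiridol intervals overlapped. The ratio to DMSO was 2.11 with JQ1+ (interval 1.83 to 2.43) and 0.976 with flavopiridol (interval 0.819 to 1.16). Rgs10 was 2.16 times as high in JQ1+ as in flavopiridol (interval 1.85 to 2.52). Its log2 change of 1.04 with JQ1+ against DMSO only just passed the 2-fold rule, and the intervals of both JQ1+ ratios include values under 2. The myeloid genes Lyz2, at 0.181 RPKM in DMSO, 1.94 in JQ1+ and 0.044 in flavopiridol, and Itgam, at 0.246, 0.503 and 0.347, were also highest in JQ1+, and their part in the Rgs10 values was not tested.

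Rgs14, an R12 protein that also binds Ras-like GTPases, stood at 10.96 RPKM in DMSO, 15.96 in JQ1+ and 12.99 in flavopiridol. The ratio with JQ1+ was 1.46 (interval 1.21 to 1.76) and that with flavopiridol 1.18, whose interval of 0.968 to 1.45 included 1. Rgs12, a large scaffold of the same subfamily, stood at 2.99, 1.71 and 3.15 RPKM. It was the one gene of the 10 to lie below DMSO beyond counting error in any comparison, 1.74-fold lower with JQ1+ (interval 1.34 to 2.27), with a log2 change of -0.56 that was within 2-fold. The R12 genes therefore went apart with JQ1+, Rgs10 and Rgs14 standing higher and Rgs12 lower.

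Rgs19, also known as GAIP and active on Gi subunits, stood at 45.8 RPKM in DMSO, 58.6 in JQ1+ and 60.8 in flavopiridol, from 2150, 2462 and 2326 counts. The ratios to DMSO were 1.28 (interval 1.16 to 1.41) and 1.33 (interval 1.20 to 1.47), both above 1 by more than counting error and within 2-fold. The drug libraries did not differ from each other beyond counting error, at a ratio of 0.964 (interval 0.875 to 1.06). The log2 difference of -0.05 between them became 0.15 when the libraries were scaled by the median of ratios, a shift larger than counting error.

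Between the drugs, Rgs10 was higher in JQ1+ past 2-fold, Rgs1 and Rgs2 were lower past 2-fold, and the other 7 were within 2-fold or under the level filter. With a pseudocount of 5 RPKM the call of Rgs2 alone remained. Of all genes compared, 2.06% were higher in JQ1+ than in flavopiridol and 6.87% lower. In plain RPKM, Rgs12 stood 1.84-fold lower with JQ1+ (interval 1.41 to 2.41) and Rgs14 1.23 times as high (interval 1.02 to 1.49).

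The sum over the 10 genes was 90.4 RPKM in DMSO, 145.7 in JQ1+ and 149.9 in flavopiridol. Similar sums in the drug libraries had different make-up. R4 genes supplied 8.08% of the sum in DMSO, 13.9% in JQ1+ and 33.5% in flavopiridol. R12 genes supplied 41.3%, 45.9% and 26.0%, and Rgs19 alone 50.6%, 40.2% and 40.5%. Rgs1, Rgs2 and Rgs16 together went from 6.21 RPKM in DMSO to 18.7 in JQ1+ and 47.5 in flavopiridol. Rgs10 and Rgs19 held 76.5% of the sum in DMSO, 73.95% in JQ1+ and 55.8% in flavopiridol.

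**Figure D3:**
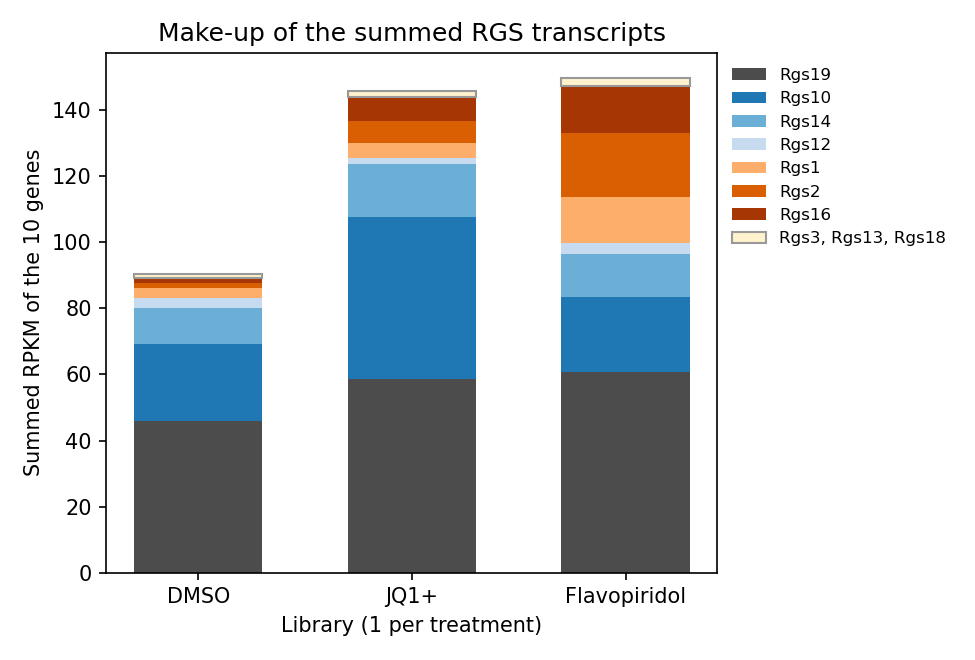
Summed RPKM of the 10 RGS genes in each library, with each gene as a stacked part of the bar. The JQ1+ and flavopiridol bars reach 145.7 and 149.9 RPKM, the first with a larger Rgs10 part and the second with larger Rgs1, Rgs2 and Rgs16 parts.

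The rest of the family stood low. Of 14 other RGS and RGS-associated genes searched, 13 were found by symbol and none reached a mean of 1 RPKM; Rgs21 was not matched. Their summed level was 1.17 RPKM in DMSO, 0.917 in JQ1+ and 1.35 in flavopiridol, and the highest value of any of them was 0.347 RPKM, for Rgs20 in DMSO. Rgs4 had no reads in any library. For scale, 3 undivided counts equal 0.0502 CPM (DMSO), 0.0585 (JQ1+) and 0.0598 (flavopiridol). The counts are not independent fragments, so the limit that a count of 0 allows lies above these values.

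Rgs2, Rgs13, Rgs1 and Rgs18 lie in this order in a run on chromosome 1, and Rgs16 lies elsewhere on the same chromosome beside Rgs8 and Rgsl1. All 4 genes of the run had their highest level in flavopiridol and their lowest in DMSO, although the Rgs13 intervals overlapped throughout. For Rgs18 the intervals of JQ1+ against DMSO and of JQ1+ against flavopiridol also included a ratio of 1. The flanking genes compared did not pass 2-fold with either drug. Uchl5, a deubiquitinase gene next to Rgs2, had log2 changes of -0.12 with JQ1+ and 0.66 with flavopiridol, the glutaredoxin gene Glrx2 -0.16 and 0.50, and the glycosyltransferase gene B3galt2 0.45 and 0.24. On the other side Brinp3, Pla2g4a and Ptgs2 were under the level filter. Beside Rgs16, Rgs8 and Rgsl1 stayed under 0.3 RPKM in each library.

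**Figure D4:**
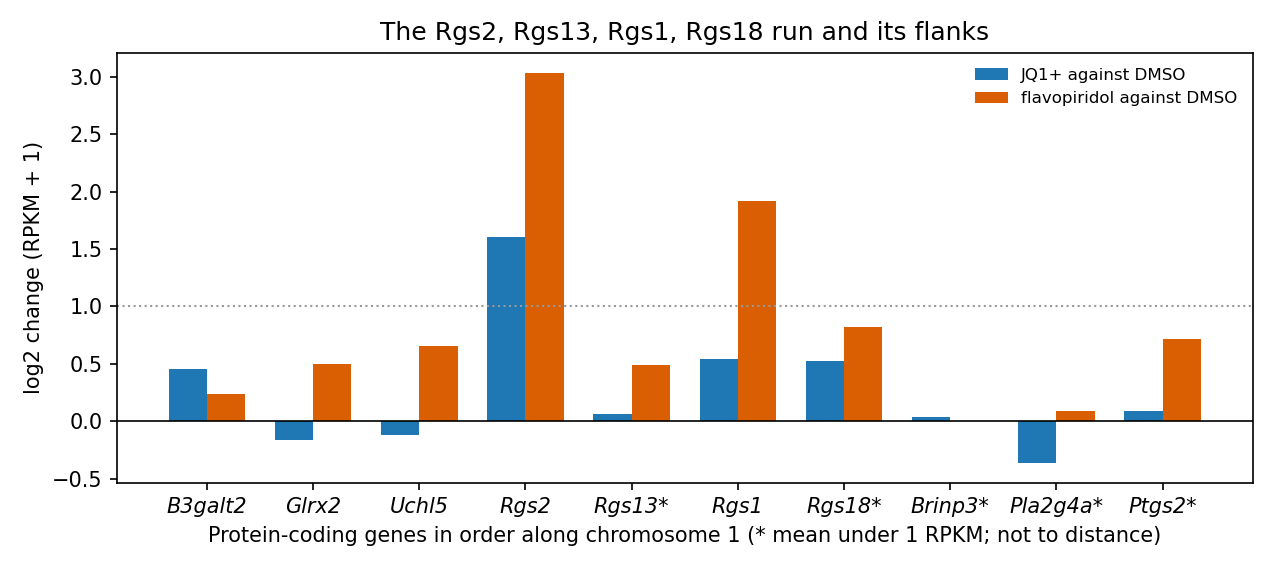
Log2 change of RPKM + 1 against DMSO for protein-coding genes in order along chromosome 1 around the run of RGS genes, with blue bars for JQ1+, orange bars for flavopiridol and a dotted line at 1. Rgs2 passes the line with both drugs and Rgs1 with flavopiridol, and none of the 6 flanking genes passes it.

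The genes whose pair of changes against DMSO lay closest to that of Rgs2, by Euclidean distance over the 11366 genes whose mean reached 5 RPKM, were Mt2 at 0.33, Rgs16 at 0.58 and Mt1 at 0.63. The pattern rests on 3 libraries. The metallothionein genes Mt2 and Mt1 stood at 1.88 and 20.1 RPKM in DMSO, 6.78 and 43.7 in JQ1+, and 27.7 and 134 in flavopiridol.

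The other genes of the pathway are described by list, beginning with the proteins that RGS regulators act on. Of 10 G protein alpha subunit genes compared, none rose with either drug and 1 fell with both, Gnaz, which encodes the alpha subunit Gz of the Gi class. Among 3 further alpha subunit genes under the level filter, Gnai1 stood at 0.06 RPKM in DMSO, 0 in JQ1+ and 1.515 in flavopiridol. Its counts were 4, 0 and 83, and its ratio of 25.25 with flavopiridol had an interval of 5.28 to 417. Gnao1 and Gna14 were within 2-fold with both drugs. Gnaz fell from 16.3 RPKM in DMSO to 0.727 in JQ1+, 22.5-fold lower (interval 13.9 to 38.1), and to 5.69 in flavopiridol, 2.87-fold lower (interval 2.35 to 3.53). Gnai2, the main Gi alpha subunit of lymphocytes, stood at 398 RPKM in DMSO, 468 in JQ1+ and 376 in flavopiridol. Gnaq, which encodes the Gq alpha subunit that Rgs2 acts on, stood at 10.1, 18.9 and 17.5 RPKM, with log2 changes of 0.84 and 0.74. Gna15 of the same class stood at 46.1, 23.6 and 28.6 RPKM. The median change of the alpha subunits was 0.15 with JQ1+ and 0.04 with flavopiridol, against -0.08 and 0.13 over all genes compared.

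Among 11 beta and gamma subunit genes, 2 fell with JQ1+ and 1 with flavopiridol, and none rose. Gnb4 (log2 change -1.30) and Gng12 (-1.13) fell with JQ1+, and Gngt2 (-1.09) fell with flavopiridol. Gnb5, the beta subunit that pairs with the R7 subfamily of RGS proteins, stood at 2.08 RPKM in DMSO, 0.679 in JQ1+ and 1.62 in flavopiridol. The median changes of the list were -0.27 and -0.22.

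Of 20 G protein-coupled receptor genes of B cells, 1 rose with JQ1+ and 3 with flavopiridol, and none fell. S1pr1, the Gi-coupled receptor that guides exit from lymphoid tissue, rose from 20.9 RPKM in DMSO to 84.1 in JQ1+ and 53.6 in flavopiridol. Cxcr4, the receptor for Cxcl12, stood at 54.7, 107 and 126 RPKM and rose past the rule with flavopiridol (log2 change 1.19). With JQ1+ its log2 change was 0.95, which passed the rule when the libraries were scaled by summed counts or by the median of ratios. Ptger4, a prostaglandin receptor coupled to Gs, rose with flavopiridol from 14.2 to 36.1 RPKM (1.29) and stood at 19.2 in JQ1+. Ccr7, which draws B cells towards the T zone, stood at 68.6, 60.4 and 122 RPKM, with a log2 change of 0.82 with flavopiridol. The list medians were -0.07 with JQ1+ and 0.33 with flavopiridol.

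None of 6 receptor kinase and arrestin genes passed 2-fold with either drug. The largest changes there were in Grk5 (0.41 with JQ1+, -0.29 with flavopiridol) and in Arrb2, an arrestin gene (-0.43 and -0.57). Of 12 effector genes 1 fell with JQ1+ and none passed with flavopiridol. Plcb2, a phospholipase C activated by Gq and by beta-gamma subunits, fell from 11.6 RPKM in DMSO to 2.85 in JQ1+ and stood at 5.61 in flavopiridol. Its log2 change of -0.93 there passed the rule under both of those scalings. Prex1, an exchange factor for Rac, stood at 42.7, 30.9 and 26.7 RPKM.

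Of 17 cyclic AMP pathway genes 1 fell with JQ1+ and 1 rose with flavopiridol. Prkar2a, a regulatory subunit of protein kinase A, fell from 19.4 to 8.19 RPKM with JQ1+ and stood at 37.0 in flavopiridol (log2 change 0.90). Prkar2b, a related subunit, rose with flavopiridol from 0.351 to 1.74 RPKM (1.02), a call lost with the median of ratios, and stood at 1.58 in JQ1+ (0.93), which passed with summed counts. Crem, a cyclic AMP-responsive factor, stood at 17.5, 8.62 and 17.3 RPKM. The list medians were -0.28 and -0.02.

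Of 12 other regulators of alpha subunits 1 fell with both drugs and none rose. This was Gpsm3, which holds alpha subunits in their inactive form, at 44.8 RPKM in DMSO, 18.5 in JQ1+ and 15.1 in flavopiridol. Its log2 changes were -1.23 and -1.51. Snx14, a sorting nexin with an RGS-like domain, stood at 18.6, 33.3 and 20.6 RPKM, a log2 change of 0.81 with JQ1+. The list medians were 0.08 and 0.13.

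**Figure D5:**
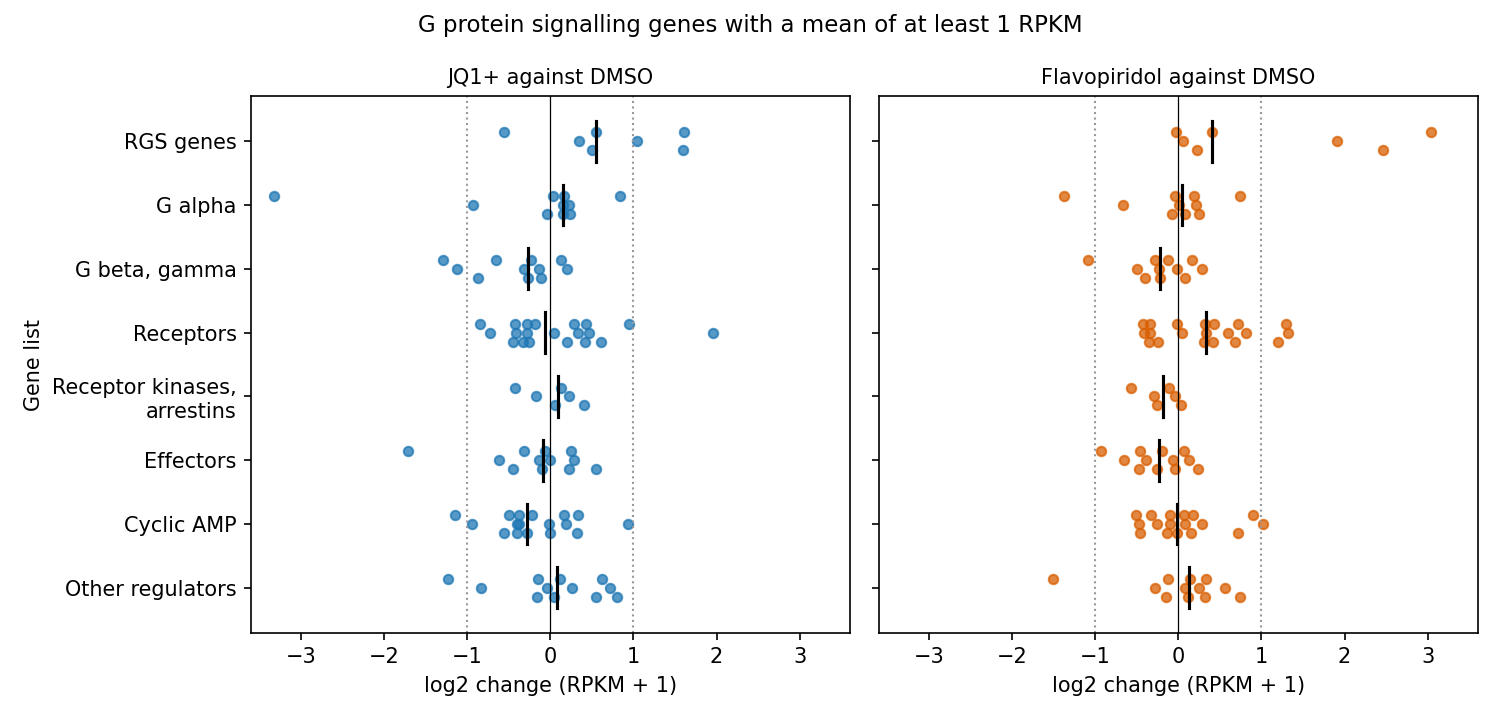
Log2 change of RPKM + 1 against DMSO for genes of G protein signalling whose mean reached 1 RPKM, with 1 point per gene, a black bar at each list's median and dotted lines at 2-fold. The RGS genes furthest to the right are Rgs2 and Rgs16 in both panels, and Gnaz is the alpha subunit gene furthest to the left.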

How the data were processed

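Total RNA of 3 cultures was extracted with Trizol, depleted of ribosomal RNA with Ribo-Zero and made into Illumina libraries, per the labels' protocols. The deposited tables give whole-number counts per gene, without normalisation, per the file headers. RPKM was computed by the authors from gene length and a library total, per the file headers. Build mm9 is named in the submitters' processing notes. Not given in the sources used here are the aligner, the counting program, the annotation and whether strand was used. No positions are taken from the tables; RefSeq windows and gene order are from GRCm38.p6. GENCODE M21 exon lengths, matched by identifier, gave the totals behind the RPKM.

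Counts summed to 2.84 (DMSO), 2.72 (JQ1+) and 2.92 (flavopiridol) times those totals, so they are not independent fragments. For exact binomial or Poisson 95% intervals they were divided by 2.83. Changes are log2 ratios after adding a pseudocount of 1 to each RPKM, so low genes appear to change less than they do. Symbols on several rows were represented by their highest row. The RGS genes and all gene lists were chosen with earlier results of these data known. Named genes were the 10, other RGS genes whose mean reached 1 RPKM, up to 4 genes per pathway list with the largest change, and the 3 nearest patterns; markers, chromosomal neighbours and other RGS genes were also described, and neighbours were chosen after the values were seen. RefSeq neighbours are protein-coding genes whose symbol is in the tables. Reads of overlapping genes cannot be told apart on the same strand or, without strand, on opposite strands. On the same strand Gm15503 overlaps Rgs10, with 1, 11 and 9 counts, and Mir3097 overlaps Rgs12, with 0, 3 and 0. GENCODE M21 places antisense genes over Rgs3, Rgs12 and Rgs16. Some genes of the lists are not reported here. Calling and intervals were tested on simulated independent counts. Those counts were not divided by 2.83, so the division used for the intervals here was not tested. Python 3.11.15, pandas 2.3.3 and scipy 1.17.1 were used.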

Additional observations from a re-analysis of the deposited data

How the results depend on the processing

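The calls of RGS genes were repeated with a pseudocount of 0.1 or 5 RPKM, scaling by the median of ratios, CPM from the summed counts, no filter on low values, a counting interval that leaves out 1, and a 1.5-fold threshold. With a pseudocount of 5 RPKM, JQ1+ against DMSO gave 0 RGS genes past 2-fold in place of 3, and JQ1+ against flavopiridol gave 1, Rgs2, in place of 3. With the 1.5-fold threshold JQ1+ against flavopiridol gave 5, adding Rgs12 and Rgs16 as lower in JQ1+. Every other count was 3 under every alternative, and the same 3 genes were called. No RGS gene past 2-fold changed sign with a pseudocount of 0.1, the median of ratios or CPM. Of the changes within 2-fold, Rgs19 in JQ1+ against flavopiridol went from -0.05 to 0.15 with the median of ratios and 0.051 with CPM. Rgs12 and Rgs3 in flavopiridol against DMSO went from 0.06 and 0.04 to -0.04 and -0.01 with the median of ratios. With a pseudocount of 0.1 the Rgs2 change with flavopiridol was 3.62 in place of 3.04. Scaling by the median of ratios moved the median of all genes from 0.13 to 0.01 for flavopiridol against DMSO and from -0.21 to -0.03 for JQ1+ against flavopiridol. Over all genes the share of calls that were higher went from 55.2% to 43.0% with that scaling and to 42.6% with CPM for flavopiridol against DMSO, and from 23.0% to 40.4% with that scaling for JQ1+ against flavopiridol. Among all genes compared, a pseudocount of 0.1 gave 1647 calls for JQ1+ against DMSO in place of 1075. For the pathway lists, 11 of 14 counts kept the same genes with the median of ratios and 11 of 14 with CPM, comparisons chosen after seeing the data. No paired analysis was possible because each treatment has 1 library, which also leaves no replicate to leave out. Depth limits Rgs13 and Rgs18 most, with 4 to 47 counts per library.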
